A study of Mus musculus with 2 samples.

Results

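The genes described here code for enzymes that add methyl groups to histones and other proteins or take them off, together with their closest relatives: lysine methyltransferases (Kmt and Setd symbols), lysine demethylases (Kdm), PR-domain proteins (Prdm) and protein arginine methyltransferases (Prmt). They were chosen by symbol alone. Of 17774 genes in the deposited count table, 54 carried 1 of these prefixes followed by a digit, and 49 remained after *Kdm6a*, *Kdm6b*, *Kmt2c*, *Kmt2d* and *Prdm1* were set aside. The filter of the methods, which asks that a gene be detected in 3 cells or more, kept 48 of the 49 and 15947 genes in all. *Kdm8* was the 1 that did not pass. Values are given for the 29 genes detected in 10% or more of the cells of either library, and the 19 others are summarised.

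Methyl groups on histone tails mark chromatin for other proteins. Methylation of H3K4 is found at active promoters and enhancers, that of H3K36 along transcribed genes, and that of H4K20 and H3K9 in compacted chromatin. SET-domain enzymes transfer the methyl group from S-adenosylmethionine to lysine, PRMT enzymes transfer it to arginine, and JmjC enzymes remove it from lysine in a reaction that needs iron and 2-oxoglutarate. The PR domain is related to the SET domain, but many PRDM proteins act as DNA-binding transcription factors, several of them in developing neurons. GSK-J4 was designed against KDM6A and KDM6B, the JmjC enzymes that act on H3K27. The paper adds that it has since been reported to inhibit other JmjC enzymes, among them the KDM5 subfamily. The genes described here leave out *Kdm6a* and *Kdm6b* but include those of the KDM5 enzymes.

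Cones came from mice carrying the *Pde6c* cpfl1 mutation, a model of achromatopsia in which cones die, crossed with the Chrnb4.eGFP line on a C57BL/6 background, where the *Chrnb4* promoter drives GFP in cones. The 2 libraries were taken at P24, 1 from uninjected retinae and 1 from retinae that had received a single intravitreal injection of 10 µM GSK-J4 at P14, 10 days before. The cell names of the second library hold the word adult, whereas its label gives P24. GFP-positive cells were sorted 1 per well, each library on its own plate, the control eyes received no vehicle injection, and the number of animals is not given in the labels, so plate, injection and drug cannot be told apart, and nothing that differs between the libraries was checked in a replicate. The filter kept 82 of 85 uninjected cells with 1113424 counts and 64 of 66 GSK-J4-treated cells with 208578 counts, a median of 8118 (860 to 98250) and 2335.5 (420 to 15371) counts per cell.

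The labelled cell type was checked against marker genes. The 11 cone markers took 2.59% of the counts of the uninjected library and 0.213% of those of the GSK-J4-treated library, in which *Opn1sw*, *Gngt2*, *Cngb3*, *Pde6c* and *Guca1a* were at 0. A cone marker count was missing from 50 of 64 GSK-J4-treated cells and from 0 of 82 uninjected cells. The cone label was thus not borne out by markers in most GSK-J4-treated cells, and they are called by their library here. Markers of rods (0.355% and 0.0259%) and Müller glia (0.111% and 0.0316%) were lower in the GSK-J4-treated library too, and those of bipolar, amacrine and ganglion cells, microglia and retinal pigment epithelium took at most 0.0139% of either library. Genes with Olfr or Vmn symbols, receptors of the nose and vomeronasal organ that serve as a background here, took 0.624% and 1.43%. The part of cell identity, depth and background in the differences below was not tested.

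Together the methylation enzyme genes were a small share of the RNA, with 2022 counts in the uninjected library and 836 in the GSK-J4-treated one, or 18.2 and 40.1 per 10000 counts. *Prdm11* alone gave 332 of the 836. A cell held a median of 5 (0 to 35) of these genes in the uninjected and 4.5 (0 to 16) in the GSK-J4-treated library, and 5 and 3 cells held none. Since the cells differed in depth, each was also thinned to 867 counts, the depth of the 10th percentile cell. This left out 14 shallower GSK-J4-treated cells and 1 from the uninjected library. Over the cells that remained, the mean number of these genes per cell was 7.12 and 5.68 before thinning and 1.11 and 1.78 after it, so its order between the libraries turned with depth.

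The log-fold used below is the natural log of the mean count per 10000 over the cells of a library plus 1, GSK-J4-treated minus uninjected, and 0.3 is the size threshold of the methods. Of the 48 genes, 3 were lower by more than 0.3 (6.25%) and 7 were higher by more than 0.3 (14.6%), while 38 lay between. In the whole filtered table, 11.8% of genes were lower and 12.6% higher by that much. The share of methylation enzyme genes that were higher was thus near the background, and the share that were lower was below it. With a pseudocount of 1, a gene of low uninjected mean cannot be lower by more than 0.3, even with no GSK-J4-treated count. The share that were lower is thus bounded by level and is not read as a result about these genes. Their median log-fold was 0.06 against 0.03 for all genes. With median-ratio size factors in place of totals, 6 were lower and 2 higher, against 16.2% and 3.96% of all genes, so the split between the directions depends on the scaling. Counts given below by group are of few genes each. They have the 11.8% and 12.6% of all genes as background and are not read as results about the groups. No test was run, because each condition had 1 library. Intervals given below are exact 95% intervals, Poisson for summed counts and Clopper-Pearson for shares of cells, and they cover counting error only.

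**Figure D1:**
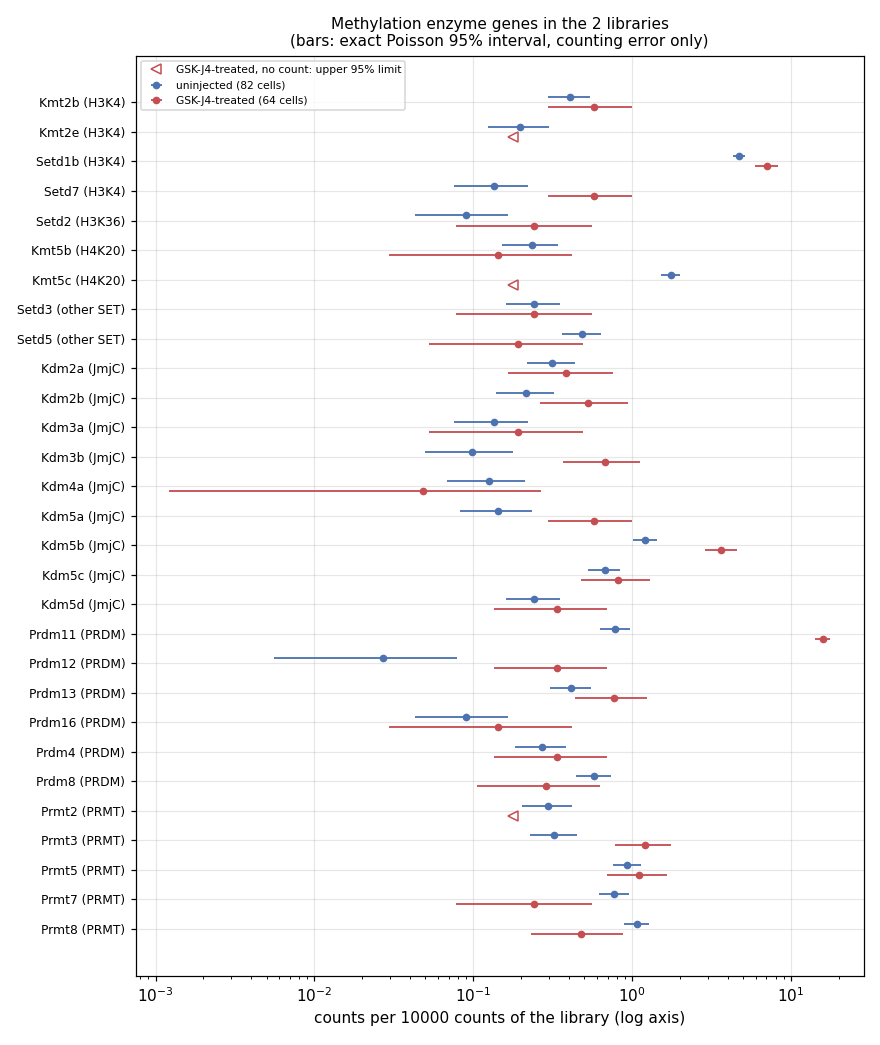
Counts of each of the 29 genes per 10000 counts of its library (log axis) in uninjected (blue, 82 cells) and GSK-J4-treated cells (red, 64 cells), grouped by role. Points are summed counts, bars are exact Poisson 95% intervals, and open triangles give the upper 95% limit where no count was found. *Prdm11* stands at 0.781 and 15.9, the widest gap upward, while *Kmt5c* stands at 1.75 in uninjected cells with no count in GSK-J4-treated cells.

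In summed counts per 10000, the counting intervals of the libraries did not overlap for 12 of the 29 genes. The share over all genes was not computed. These intervals leave out the crowding of counts in single wells, so the 12 are a description and not a result about these genes. Those of *Setd1b*, *Setd7*, *Kdm3b*, *Kdm5a*, *Kdm5b*, *Prdm11*, *Prdm12* and *Prmt3* lay higher in the GSK-J4-treated library, and those of *Kmt5c*, *Prmt2*, *Prmt7* and *Prmt8* lay lower. The intervals of the other 17 overlapped. *Prdm12*, *Setd7* and *Kdm5a* reached 10% of cells in the GSK-J4-treated library only, and *Kmt5c*, *Prmt2*, *Prmt7* and *Kdm3b* in the uninjected library only. Except for *Kdm3b*, each of these was thus listed through the library where its rate was higher. Levels of different genes were compared only per kb of exon. Counts were taken at the ends of transcripts, so this scale can understate long genes such as *Setd1b*, and the order it gives is a description. The highest values in uninjected cells were those of *Kmt5c* with 0.438 (0.378 to 0.504) counts per 10000, *Prmt8* with 0.392 (0.325 to 0.470), *Setd1b* with 0.391 (0.359 to 0.426) and *Prmt5* with 0.236 (0.193 to 0.286). The first 3 did not differ beyond their intervals, and *Prmt5* lay below them. A single well held 129 of the 195 *Kmt5c* counts and another 61 of the 119 *Prmt8* counts, so much of their height rests on 1 well each. The top well of *Setd1b* held 73 of its 526 counts. In GSK-J4-treated cells *Prdm11* led with 0.934 (0.836 to 1.04), followed by *Setd1b* with 0.584 (0.493 to 0.686) and *Prmt5* with 0.279 (0.177 to 0.418). A single cell held 290 of the 332 *Prdm11* counts, and without it *Prdm11* stood at 0.121 per kb. This was below *Setd1b* and *Prmt5* with their own top wells kept.

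**Figure D2:**
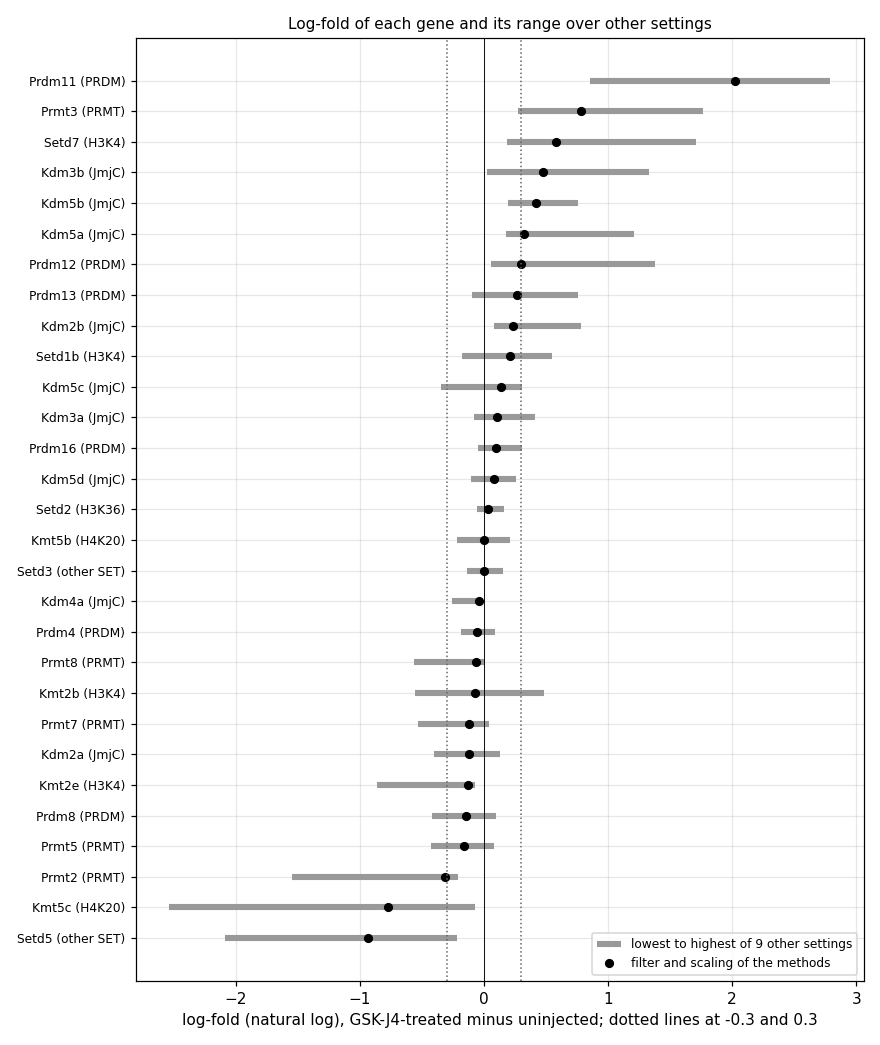
Log-fold (natural log, GSK-J4-treated minus uninjected) of the 29 genes, in order of size. Points use the filter and scaling of the methods, grey bars run from the lowest to the highest value over 9 other settings, and dotted lines mark -0.3 and 0.3. The bar of *Prdm11* (0.85 to 2.79) is the only one that lies wholly past a dotted line.

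The promoters of *Prdm11* and *Kmt5c* are shown because *Prdm11* had the highest ratio between the libraries among the 29 genes, and *Kmt5c* had the most counts of the 3 with none in GSK-J4-treated cells. Both sequences are from RefSeq on GRCm38.p6, run 5′ to 3′ along the strand of the gene from 250 to 51 bases before its start, and have the CG dinucleotides, the sites of DNA methylation in mammals, in capitals.
*Prdm11*, chr2:93046216-93046415, minus strand: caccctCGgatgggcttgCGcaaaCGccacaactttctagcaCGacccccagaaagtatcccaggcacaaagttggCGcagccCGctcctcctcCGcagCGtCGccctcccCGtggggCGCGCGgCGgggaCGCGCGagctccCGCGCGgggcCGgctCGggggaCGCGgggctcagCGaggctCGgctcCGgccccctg
*Kmt5c*, chr7:4739877-4740076, plus strand: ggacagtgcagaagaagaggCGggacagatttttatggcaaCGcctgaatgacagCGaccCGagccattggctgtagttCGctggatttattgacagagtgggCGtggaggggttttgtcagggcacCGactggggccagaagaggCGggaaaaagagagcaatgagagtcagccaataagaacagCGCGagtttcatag
The *Prdm11* stretch held 27 CG in 200 bases at 74% G and C, and that of *Kmt5c* held 10 at 53.5%. RefSeq promoters were matched for 38 of the 49 genes. Over the 250 bases before the start their median was 14 CG (0 to 56), the same as over the 11789 filtered genes with a promoter in the table, and above the 6 of all 27025 promoters in the table. The letters TAATCC, the core bound by the photoreceptor factor CRX, were found on either strand in 3 of the 38 (7.89%), *Prdm13*, *Kdm4c* and *Kmt5b*, against 5.50% of filtered genes and 6.38% of all promoters. These are matches of letters, not binding sites.

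*Prdm11* codes for a PR-domain protein and lies on the minus strand at chr2:92965151-93046167 (GRCm38) over a span of 81.0 kb. It had 87 counts (69.7 to 107) in the uninjected library, with 0 to 16 per cell and a median of 0, and 332 (297 to 370) in the GSK-J4-treated library, with 0 to 290 per cell and a median of 1. The cells of the libraries overlapped in their counts, and the 2 patterns differed. In uninjected cells the counts sat in 18 cells (22.0%, 13.6 to 32.5), of which 7 held more than 5 counts and 10 held 1. In GSK-J4-treated cells 41 cells held a count (64.1%, 51.1 to 75.7), of which 38 held exactly 1, a pair held 2, and 1 cell held 290. That cell gave 87.3% of the *Prdm11* counts of its library, and *Prdm11* made up 5.20% of its 5580 counts.

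The log-fold of *Prdm11* was 2.02, and the ratio of the rates was 20.4 (16.0 to 26.1). Without the well with the most *Prdm11* counts in each library, the log-fold was 0.93, with 42 counts left in GSK-J4-treated cells. It was 0.85 in plate columns 1 to 6 and 2.64 in columns 7 to 12, where the 290 counts lay. *Prdm11* was past 0.3 in all 9 other settings, the only 1 of the 10 genes past the threshold for which that held. After thinning, the share of cells expected to hold a count was 3.99% without and 22.6% with GSK-J4. The direction was thus the same with and without the well of most *Prdm11* counts, while the size was not.

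**Figure D3:**
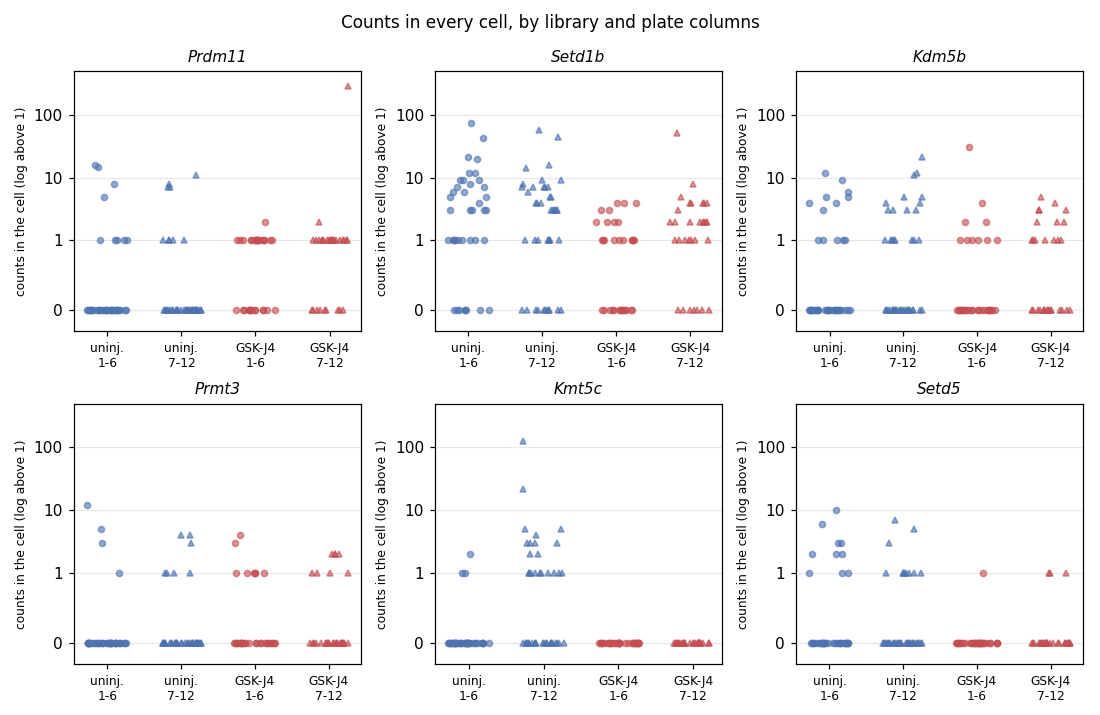
Counts in every cell (log axis above 1) for *Prdm11*, *Setd1b*, *Kdm5b*, *Prmt3*, *Kmt5c* and *Setd5*, with uninjected cells in blue, GSK-J4-treated cells in red, plate columns 1 to 6 as circles and 7 to 12 as triangles. *Prdm11* shows a row of GSK-J4-treated cells at 1 count with 1 cell at 290, and *Kmt5c* shows most of its counts (191 of 195) in uninjected cells of columns 7 to 12 and no count in GSK-J4-treated cells.

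The other named PRDM genes are transcription factors or PR-domain relatives known from neurons or other tissues. *Prdm12*, known from pain-sensing neurons, had 3 uninjected and 7 GSK-J4-treated counts, every one in a cell of its own (ratio 12.5, 2.84 to 74.6). Its log-fold of 0.30 was only just over the threshold and was 0.06 in columns 1 to 6. *Prdm13*, which acts in amacrine cell development, had 46 and 16 counts (log-fold 0.27), and 15 of the 16 lay in columns 7 to 12. *Prdm8*, a repressor in neurons and bipolar cells, had 64 and 6 counts (log-fold -0.15), *Prdm4* 30 and 7 (-0.05) and *Prdm16*, known from brown fat, 10 and 3 (0.10). None of these last 4 passed the threshold. All 13 PRDM genes together had 278 and 396 counts, 0 lower and 2 higher by more than 0.3, with a median log-fold of 0.08.

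The H3K4 methyltransferase genes were led by *Setd1b*, the catalytic subunit of 1 of the COMPASS complexes, at chr5:123142193-123168629 on the plus strand. It had the most counts of the 49 genes in uninjected cells. A cell held 0 to 73 counts with a median of 3 in the uninjected library and 0 to 52 with a median of 1 in the GSK-J4-treated library, 526 (482 to 573) and 147 (124 to 173) in all. The cells overlapped widely, and 1 GSK-J4-treated cell held 52 of the 147. Shares of cells with a count were 76.8% (66.2 to 85.4) and 67.2% (54.3 to 78.4), but 27.4% and 40.4% at equal depth. The rate was 4.72 and 7.05 per 10000, a ratio of 1.49 (1.23 to 1.79), and the log-fold was 0.21. This log-fold was 0.55 in columns 7 to 12 but -0.18 in columns 1 to 6 and -0.15 with median-ratio size factors, so *Setd1b* has no direction that held across the plate and the scaling.

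*Setd7*, which monomethylates H3K4 and lysines of other proteins, was higher in GSK-J4-treated cells on both plate sides. It had 15 counts (8.40 to 24.7) in 8 uninjected cells and 12 (6.20 to 21.0) in 10 GSK-J4-treated cells, with at most 5 and 3 per cell, a ratio of 4.27 (1.83 to 9.77). Its log-fold was 0.58, with 0.62 in columns 1 to 6, 0.53 in columns 7 to 12 and 0.19, no longer past the threshold, with median-ratio size factors. *Kmt2b*, an MLL-family enzyme, had 45 and 12 counts (log-fold -0.07, ratio 1.42, 0.685 to 2.74). Its counts were unevenly placed, with 41 of the 45 in columns 7 to 12 of the uninjected plate and 10 of the 12 in columns 1 to 6 of the other. *Kmt2e*, an MLL-family relative, had 22 counts (13.8 to 33.3) in uninjected cells and none in GSK-J4-treated cells. The interval of the ratio ran from 0 to 0.975 while the intervals of the 2 rates overlapped. Its log-fold of -0.13 is the lowest that its uninjected mean of 0.136 per 10000 allows with a pseudocount of 1, so it could not pass the threshold. The 6 H3K4 methyltransferase genes had 620 and 181 counts, 0 lower and 1 higher, with a median log-fold of 0.09. *Setd2*, the enzyme of H3K36 trimethylation, had 10 and 5 counts (log-fold 0.03, ratio 2.67, 0.716 to 8.57).

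*Kmt5c*, which trimethylates H4K20, was the gene with most counts in 1 library and none in the other. It lies at chr7:4740115-4747514 on the plus strand. Uninjected cells held 0 to 129 counts with a median of 0, and all 64 GSK-J4-treated cells held 0, so a count was seen in the uninjected library only. The 195 counts (169 to 224) lay in 24 cells (29.3%, 19.7 to 40.4), against 0 of 64 cells, for which the interval runs to 5.60%. The interval of the ratio of GSK-J4-treated to uninjected rates ran from 0 to 0.102, and the log-fold was -0.77.

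The *Kmt5c* counts were not spread evenly over the uninjected cells. A single well held 129 of them (66.2%), the next wells 22 and 5. Plate columns 7 to 12 held 191 counts in 21 of 43 cells, and columns 1 to 6 held 4 counts in 3 of 39 cells. The log-fold was -1.15 in columns 7 to 12, -0.08 in columns 1 to 6 and -0.33 without the well with most counts. In columns 1 to 6 the uninjected level was thus itself too low for a difference to show. At equal depth 4.58% of uninjected cells were expected to hold a count. *Kmt5b*, the partner enzyme of H4K20 methylation, had 26 and 3 counts (log-fold 0.00, ratio 0.616, 0.119 to 2.01). The 3 H4K20 genes, with *Kmt5a*, had 223 and 5 counts, 1 lower and 0 higher.

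*Setd5*, a SET-domain protein linked to intellectual disability, had the lowest log-fold of the 48 genes, -0.93, yet its summed rates overlapped. It had 54 counts (40.6 to 70.5) in 21 uninjected cells and 4 (1.09 to 10.2) in 4 GSK-J4-treated cells, a ratio of 0.395 (0.104 to 1.07). Cells held 0 to 10 and 0 to 1 counts, with medians of 0. The 10 counts lay in a cell with 874 counts in all, where *Setd5* was 1.14% of the RNA, and the mean over cells weighs such a shallow cell as much as a deep one. The log-fold was -0.34 without that well and the top well of the other library, -0.28 over cells with at least 500 genes and -0.22 from summed counts. At equal depth 4.41% and 1.70% of cells were expected to hold a count. *Setd3*, which methylates a histidine of actin, had 27 and 5 counts (log-fold 0.00, ratio 0.989, 0.297 to 2.60). The 4 SET-domain genes of other or uncertain targets had 117 and 19 counts, 1 lower and 0 higher.

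**Figure D4:**
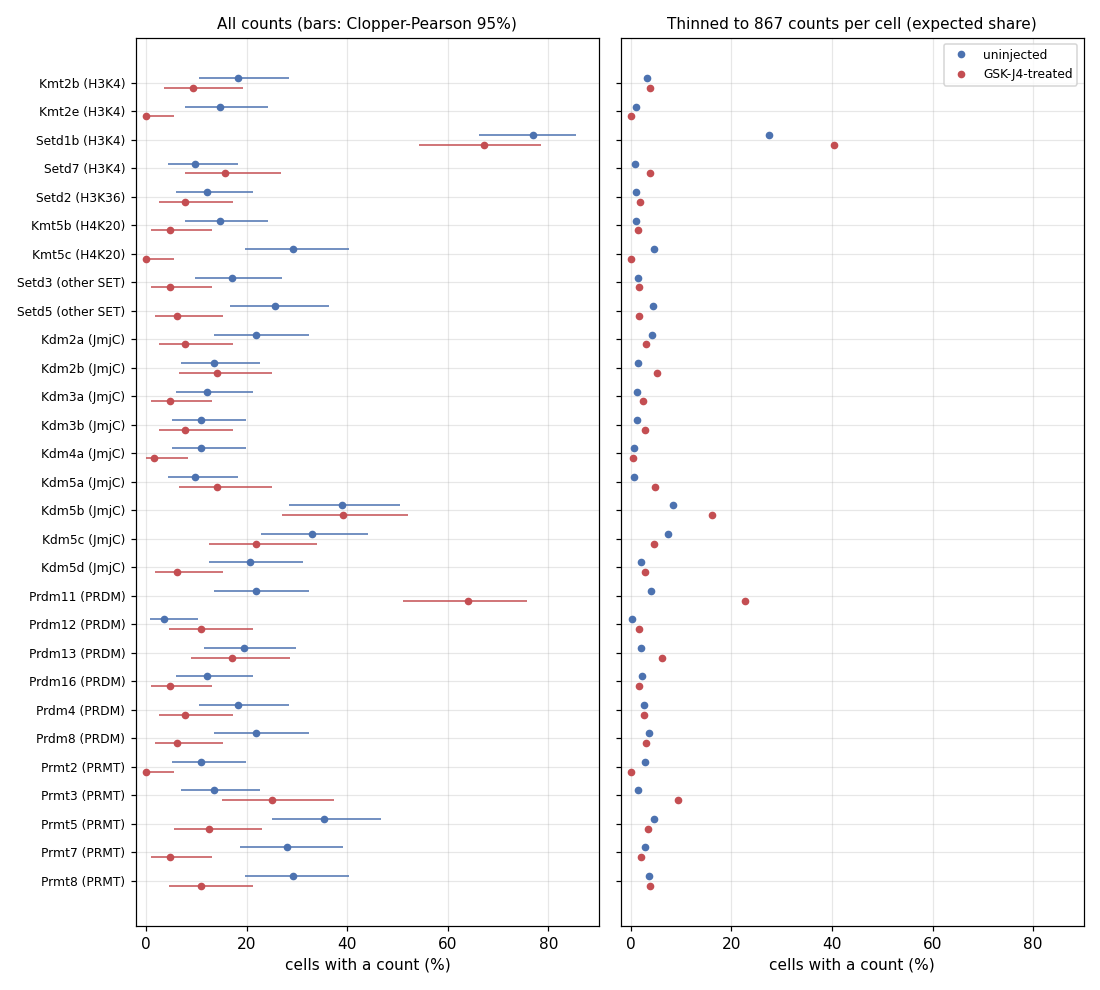
Share of cells with a count of each of the 29 genes in uninjected (blue) and GSK-J4-treated cells (red), with all counts (left, Clopper-Pearson 95% bars) and as the share expected after thinning each cell to 867 counts (right, no bars). *Setd1b* lies at 76.8% and 67.2% on the left and at 27.4% and 40.4% on the right, and *Prdm11* is higher in GSK-J4-treated cells in both.

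The KDM5 enzymes remove methyl groups from H3K4, and *Kdm5b* and *Kdm5c* had the most counts among the lysine demethylase genes in both libraries. *Kdm5b* (chr1:134560171-134635285, plus strand) had 135 counts (113 to 160) in uninjected cells, 0 to 21 per cell, and 76 (59.9 to 95.1) in GSK-J4-treated cells, 0 to 31 per cell, both with a median of 0. A count was found in 39.0% and 39.1% of cells, so the shares as sequenced did not separate the libraries. At equal depth they were 8.42% and 16.1%, and the rate was 1.21 and 3.64 per 10000, a ratio of 3.01 (2.24 to 4.01). The log-fold was 0.42, with 0.76 in columns 1 to 6, where 1 GSK-J4-treated cell held 31 of the 76 counts, 0.19 in columns 7 to 12 and 0.30 without the top wells.

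*Kdm5a*, a relative of *Kdm5b*, had 16 and 12 counts (ratio 4.0, 1.73 to 9.02), and its log-fold of 0.33 was 0.20 without the top wells. The X-linked *Kdm5c* had 75 and 17 counts (ratio 1.21, 0.670 to 2.07) and a log-fold of 0.14 that ranged from -0.35 to 0.31 over the other settings. Its Y-linked counterpart *Kdm5d* had 27 and 7 counts (ratio 1.38, 0.509 to 3.26, log-fold 0.08). The ratio intervals of *Kdm5c* and *Kdm5d* held 1, whereas those of *Kdm5a* and *Kdm5b* did not. Olfr and Vmn genes, the background here, took 0.624% of the uninjected and 1.43% of the GSK-J4-treated counts. An interval above 1 is thus not read as a rise beyond background, which was not tested.

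Of the H3K9 demethylase genes, *Kdm3b* passed the threshold with 11 uninjected and 14 GSK-J4-treated counts (ratio 6.79, 2.87 to 16.5, log-fold 0.48). A single GSK-J4-treated cell held 7 of the 14, and the log-fold was 0.02 in columns 7 to 12 and 0.17 without the top wells. *Kdm3a* had 15 and 4 counts (0.10) and *Kdm4a*, which acts on H3K9 and H3K36, 14 and 1 (-0.04). For H3K36, *Kdm2b* had 24 and 11 counts (log-fold 0.24, ratio 2.45, 1.08 to 5.19) and *Kdm2a* 35 and 8 (-0.12, ratio 1.22, 0.489 to 2.68). *Kdm2b* lies on chromosome 5 like *Setd1b*, and the cell with most counts of either gene was the same one in both libraries. Over the 13 JmjC genes there were 384 and 163 counts, 0 lower and 3 higher, with a median log-fold of 0.10. *Kdm1a*, the flavin-dependent demethylase LSD1, had 5 counts in uninjected cells and none in GSK-J4-treated cells, too few for a comparison at this depth.

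Of the 7 arginine methyltransferase genes, 1 was lower and 1 higher by more than 0.3 (14.3% each), near the 11.8% and 12.6% of all genes. *Prmt3*, a cytosolic enzyme that methylates a ribosomal protein (chr7:49778346-49858265, plus strand), had 36 counts (25.2 to 49.8) in 11 uninjected cells and 25 (16.2 to 36.9) in 16 GSK-J4-treated cells, with 0 to 12 and 0 to 4 per cell. The ratio was 3.71 (2.13 to 6.35) and the log-fold 0.78, with 0.96 in columns 1 to 6, 0.54 in columns 7 to 12 and 0.71 without the top wells. Cells with a count made up 13.4% and 25% as sequenced and 1.54% and 9.36% at equal depth. *Prmt3* was thus higher in the shallower library on both plate sides, and the value with the least difference, 0.28, came from median-ratio size factors. Its exons overlap *Gm26856* on the other strand, and strand-specific counting is not stated, so reads of the pair cannot be told apart.

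*Prmt2*, known as a coactivator of nuclear receptors, had 33 counts (22.7 to 46.3) in 9 uninjected cells and none in GSK-J4-treated cells, with an interval of the ratio from 0 to 0.631. A single well held 24 of the 33 (72.7%), and the log-fold of -0.31 was -0.22 without it. *Prmt7*, which makes monomethylarginine, had 86 and 5 counts, a ratio of 0.310 (0.0983 to 0.753). *Prmt8*, a membrane-bound enzyme of neurons, had 119 and 10 counts, a ratio of 0.449 (0.210 to 0.854), and 1 uninjected cell held 61 of the 119. Their log-folds were -0.12 and -0.06, and -0.40 and -0.16 with a pseudocount of 0.1. The log-fold weighs each cell alike and is drawn toward 0 by the pseudocount of 1 at such low means, while the ratio follows the deep cells. The part of each was not tested. *Prmt5*, the main enzyme of symmetric dimethylarginine, was found in 35.4% and 12.5% of cells with 104 and 23 counts, yet its rates did not differ beyond counting error (ratio 1.18, 0.717 to 1.87, log-fold -0.16). The 7 arginine methyltransferase genes had 385 and 67 counts, 1 lower and 1 higher, with a median log-fold of -0.06.

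Of the 10 genes past the threshold, all had the same sign on both plate sides, and 4 passed it on both sides, *Prdm11*, *Setd7*, *Setd5* and *Prmt3*. With the well of most counts left out in each library, 7 still passed the threshold, and *Kdm3b*, *Kdm5a* and *Prmt2* did not. The 10 were picked by a log-fold over these same cells, so agreement between the plate sides is partly built in. The sides are parts of 1 plate per library and not replicates. The matching shares over all genes were not computed. Of the 19 named genes within the threshold, 16 changed sign in at least 1 of the 9 other settings, among them *Setd1b*, *Prmt7* and *Prmt8*, whose counting intervals did not overlap. Shares of cells were also set beside those of the Olfr and Vmn genes. A gene of that kind had a median share of 3.66% in the uninjected and 3.13% in the GSK-J4-treated library, with a 90th percentile of 12.2% and 10.9% and a highest value of 87.8% and 70.3% over 396 genes. In the uninjected library 20 of the 29 methylation enzyme genes lay above that 90th percentile, and in the GSK-J4-treated library 10 did, *Setd1b*, *Setd7*, *Kdm2b*, *Kdm5a*, *Kdm5b*, *Kdm5c*, *Prdm11*, *Prdm13*, *Prmt3* and *Prmt5*. Shares at or below it are read as background, which holds in both libraries for *Kdm3b*, *Prdm12* and *Prmt2*, 3 of the 10 genes past the threshold. The 29 genes were themselves picked for a share of 10% or more in a library, so the counts of 20 and 10 are partly built in. That rule kept 29 of the 48 genes and 7682 of all 15947 filtered genes. The counts are thus not read as a result about these genes.

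The 19 genes found in under 10% of cells of either library included *Kmt2a*, *Setd1a*, *Kmt5a*, *Setd4*, *Setd6*, *Kdm1a*, *Kdm4b*, *Kdm4c*, *Kdm4d*, *Kdm7a*, *Prdm2*, *Prdm6*, *Prdm9*, *Prdm10*, *Prdm14*, *Prdm15*, *Prmt1* and *Prmt9*. The 19 had 132 and 64 counts together, and none was past 0.3 in either direction. Their uninjected means were too low for any of them to be lower by that much. The nearest to the threshold was *Prdm15* with 8 and 7 counts (log-fold 0.29), just inside, where *Prdm12* with 0.30 was just outside. *Prmt1*, which makes most asymmetric dimethylarginine in many tissues, had 7 counts and 1, and *Kmt2a*, another MLL-family enzyme, had 8 and 10 (log-fold 0.25). The ratio of *Kmt2a* was 6.67 (2.37 to 19.5), and the counting intervals of its rates did not overlap. A single cell held 5 of its 10 GSK-J4-treated counts.

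Gene length moved with the log-fold, as it did in the whole table. Across the 48 genes the Spearman correlation of log-fold with gene span was 0.24 and with exon length 0.35, against 0.21 and 0.25 across 15772 genes, all points of which share the same libraries and are not independent. The 24 shorter genes (3.13 to 50.9 kb) had a median log-fold of -0.00 and 1345 and 285 counts, and the 24 longer ones (52.2 to 320.7 kb) a median of 0.08 and 677 and 551 counts. *Prdm11* gave 332 of these 551, and 290 of them lay in 1 cell. The median span was 51.5 kb, against 22.8 kb for all genes. The part of length in the differences was not tested. Exons of 12 of the 29 genes overlap those of a gene on the other strand, among them *Setd7*, *Kdm3b*, *Kdm5a*, *Prdm12*, *Prmt7* and *Prmt8*, and reads of such pairs cannot be told apart here. *Prdm11*, *Kmt5c* and *Setd1b* had no such overlap.

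A list of other genes of protein methylation, with further enzymes, complex partners and the supply of the methyl donor, had 65 genes with values and 10 with none in the filtered table. Of these 6 were lower (9.23%) and 3 higher (4.62%) by more than 0.3, with a median log-fold of -0.02, against the same background of 11.8% and 12.6%. *Mat2a*, which makes S-adenosylmethionine, the methyl donor of all these transferases, had 166 counts (142 to 193) in 51 of 82 uninjected cells and 2 (0.242 to 7.22) in 2 of 64 GSK-J4-treated cells. Its log-fold was -1.07 and the ratio of its rates 0.0643 (0.00772 to 0.236). Higher in GSK-J4-treated cells were *Jarid2*, a JmjC protein without demethylase activity that partners PRC2, with 34 and 18 counts (log-fold 0.63, ratio 2.83, 1.5 to 5.15), and *Mecom*, also called PRDM3, with 24 and 17 (log-fold 0.51, ratio 3.78, 1.91 to 7.34). *Clns1a*, a partner of PRMT5, had 57 and 13 counts with a log-fold of -0.51 but a ratio of 1.22 (0.611 to 2.25), so its direction depended on how cells were weighed. *Riox2* and *Ahcyl2* had log-folds of -0.33 and -0.32 on 33 and 4 and on 40 and 4 counts, with ratio intervals that held 1. *Eef1akmt1* and *Phf2* were lower by more than 0.3 as well.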

How the data were processed

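Single GFP-positive cells of 1 uninjected and 1 GSK-J4-treated library were sequenced with an adapted SMARTseq2 and MARS-seq assay. The authors deposited whole-number counts per gene and cell without normalization. Per the methods they aligned reads in the CLC Genomics Workbench, removed duplicates by UMI and coordinates, counted with featureCounts on Gencode annotation and summed 3' and 5' counts. The genome is named GRCh38, a human build number, although the samples are mouse. Coordinates here are from GENCODE on GRCm38, and promoters are from RefSeq.

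The filter of the methods was applied again (genes seen in 3 or more cells, and cells that hold 200 genes or more and no more than 5% mitochondrial counts). Cells were scaled to 10000 counts with a pseudocount of 1, in Python 3.11.15 (scipy 1.17.1, numpy 2.4.6, pandas 2.3.3, with matplotlib 3.10.9 for figures). The Combat batch correction of the methods was left out, no doublet caller was run, and the calculation was tested on simulated counts. Those counts were Poisson, without the crowding in single wells seen here, so the simulation does not cover genes such as *Prdm11* or *Kmt5c*. No p-value was computed, as cells of 1 library are not replicates. For a gene at 0 in 1 library, the conditional exact interval of the ratio is given in place of a fold. The expected share of cells after thinning was computed exactly.

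Genes were named with values if a count was found in at least 10% of the cells of a library. Genes of the wider pathway list were named by the same share if also beyond 0.3 log-fold. The genes and lists were chosen with earlier results of these data known. Alternatives changed the scaling, pseudocount, filter, depth and plate side. Leaving out the well with most counts of a gene was added after seeing the data. Some single genes are not reported here.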

Additional observations from a re-analysis of the deposited data

How the results depend on the processing

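With median-ratio size factors, 6 genes were lower and 2 higher by more than 0.3, and the median log-fold was -0.031, where scaling to totals gave 3, 7 and 0.06. Of all genes past the threshold, 80.4% were then lower, against 48.4% with totals. With a pseudocount of 0.1 instead of 1, 10 were lower and 23 higher, with a median of 0.26, and by construction that setting weighs genes of few counts more. Over cells with at least 500 genes 1 gene was lower, and in plate columns 1 to 6 alone 12 genes were higher. The cause of these shifts was not tested. The other values under these settings, and all values from summed libraries, all deposited cells, cells over the 10th percentile of depth, columns 7 to 12 and without the well with most counts, were 2 to 4 genes lower, 5 to 10 higher and medians of 0.01 to 0.08. Of 261 log-folds of single genes under another setting, 57 moved beyond the counting interval, and 43 of 58 shares of cells moved with thinning. Thinning takes counts away, so a fall of the shares was built in, and the 43 do not measure robustness. No paired analysis was possible because each condition had 1 library. The GSK-J4-treated library had fewer than 10 counts for 16 of the 29 genes, so differences in these were limited by depth.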
